A study of Arabidopsis thaliana with 6 samples.

Results

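In rosette centres of Arabidopsis thaliana, 126 of 22746 non-control probe sets on the ATH1 array (a short-oligonucleotide array) had clearly more signal in medium than in low light and about the same signal in high as in medium light. They were chosen on MAS5 signals, with values under 20 set to 20 and taken to log2. The medium minus low light difference had to be at least 0.7 at both CO2 levels, the high minus medium difference between -0.5 and 0.5 at both, and the signal at least 50 in both medium-light arrays. In all 128 probe sets met these conditions, and SPCH and AUR2 were left out by name. AUR1, also named for leaving out, did not meet them, with a medium minus low difference of 0.67 in ambient CO2.

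The title of the series asks about the genetic basis of stomatal numbers under raised carbon dioxide. Plants of accession Col-0, stock N1092, with no mutation named, received low, medium or high light in high or ambient CO2, which makes 6 combinations with a single array apiece. All were grown in compost with the insecticide Intercept at 21 degrees C, in days of 10 h light and nights of 14 h, following 3 days at 4 degrees C. RNA came from rosette centres up to leaf 11 at growth stages 3.20 to 3.50, and neither light intensities, CO2 concentrations nor a chronological plant age are given in the sources used here. No combination was replicated. One array is labelled inconsistently, with high light and high CO2 in its title but normal air as its atmosphere, and the title was followed.

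Between-array correlations of log2 signal over all non-control probe sets ranged from 0.957 to 0.986, and median signals from 40.7 to 43.2. Mesophyll markers had strong signals on every array, with 5 probe sets between 2036.2 and 5903.4. The meristem marker CLV3 lay between 1.4 and 8.6, under the floor of 20 on every array. The pollen marker MGH3 lay between 2 and 9.6, the root marker EXPA7 between 14.7 and 26.8, and the senescence marker SAG29 between 2.8 and 13.7. The guard cell marker FAMA had, from low to high light, 59.1, 66.8 and 79.6 in high CO2, and 56.9, 82.9 and 80.6 in ambient CO2, lowest in low light at both CO2 levels as the 126 are. The 4 tested probe sets of the stomatal lineage and epidermis list, SPCH among them, had a median medium minus low log2 difference of 0.60 in high CO2 and 0.60 in ambient CO2. The high-CO2 median is a midpoint between unlike genes. In high CO2 FAMA had 0.18 and STOMAGEN 0.20, against 0.99 for ATMYC1. SPCH had the largest difference there, from a low-light signal of 5.6, set to the floor of 20. In ambient CO2 FAMA had 0.54, STOMAGEN 0.40, ATMYC1 0.65 and SPCH 1.11. The part of guard cells or their precursors in the light differences of the 126 was not tested. The 6 arrays limit the precision of every value.

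Light acts on a young rosette both as a signal, through photoreceptors, and as the source of the sugar that growth consumes. Dividing cells of young leaves copy their DNA, condense and separate chromosomes and build a new wall between daughter cells. Growing cells also make ribosomes in the nucleolus, mitochondria and plastids, a demand that follows their supply of energy and carbon. In samples of whole tissue, fewer cells of a type and less RNA per cell cannot be told apart.

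Of the 126 probe sets, 67 carried 1 gene each, 3 several genes and 56 no gene name under the annotation used. Among the 67 genes, 19 had a symbol and 48 are known here by locus number only. Genes known by locus number are described by their values alone. The median signal of the 126 in low, medium and high light was 65.3, 136.9 and 130.5 in high CO2, and 75.5, 143.6 and 129.7 in ambient CO2. The median medium minus low difference was 1.01 in high CO2 and 0.96 in ambient CO2, beside 0.05 and 0 over the 13648 probe sets tested for CO2. As these differences chose the probe sets, they are a description and were not tested. The full rule was met by 0.563% of all non-control probe sets, and its first condition alone by 1.17%.

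**Figure D1:**
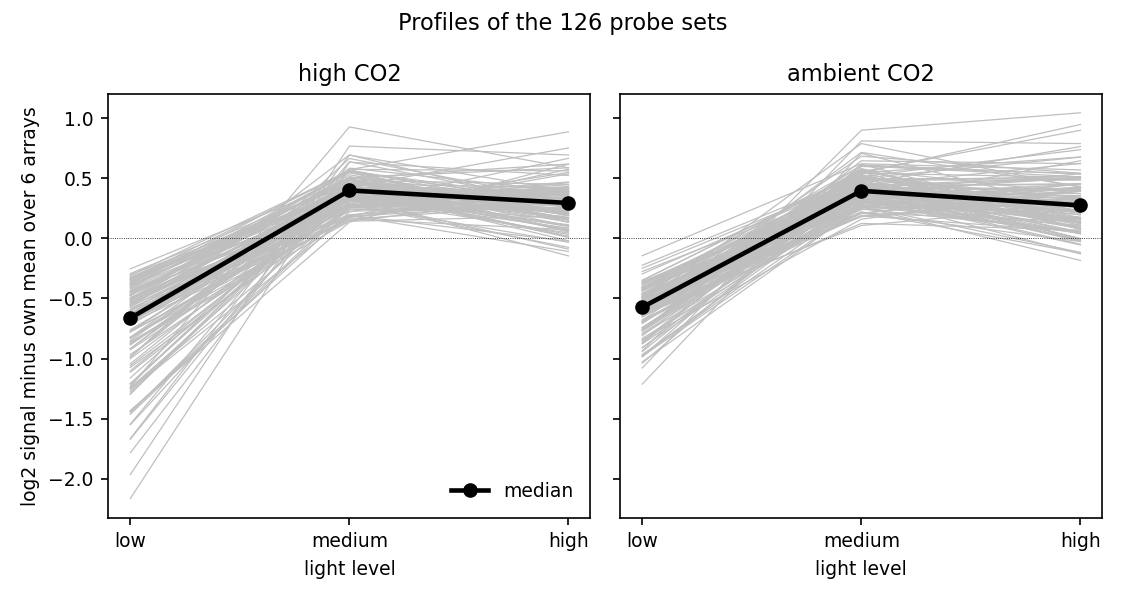
Log2 signal of each of the 126 probe sets (grey lines) minus its own mean over 6 arrays, against light level, in high CO2 (left) and ambient CO2 (right), with the median as a black line. The lines climb between low and medium light and run nearly level from medium to high light, and the low-light end spreads further down in high CO2.

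The median high minus medium difference was -0.12 in high CO2 and -0.12 in ambient CO2, beside -0.01 and -0.03 over all tested probe sets. It lay below 0 for 84 of 126 probe sets (66.7%) in high CO2 and 88 (69.8%) in ambient CO2, beside 51.5% and 52.9% of all tested. The choice of probe sets used this difference too, so nothing is read from these shares. Among the 204 probe sets that met the low-light and signal conditions alone, 128 (62.7%) met the level condition, 3 went up by more than 0.5 at both CO2 levels, 11 came down by more than 0.5 at both, and 62 did neither. The probe sets nearest each threshold are named here only among those with 1 gene, and some unnamed ones lay nearer. Just inside the low-light threshold lay AT1G73940 and AT5G22440, whose smaller medium minus low differences were 0.7012 and 0.7047. Just outside lay AT4G31210 and EMS1, with 0.6961 and 0.6954. For the larger absolute high minus medium difference, given without its sign, AT1G80750 (0.4871) and AT5G44710 (0.4828) lay just inside. AT5G20600 (0.5027) and AT1G73620 (0.5049) lay just outside. With sign, AT1G80750 had -0.4871 in ambient CO2 and AT5G44710 -0.4828 in high CO2, both lower in high than in medium light. For the lower medium-light signal, AT2G28620 (53) and AT3G20150 (53.1) lay just inside, and AT5G07810 (49.8) and AT3G03060 (49.1) just outside.

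Several probe sets report on chromosomes and mitosis. 3xHMG-box2, a high-mobility-group protein that binds mitotic chromosomes, had signals in low, medium and high light of 107.2, 480.3 and 379.3 in high CO2, and 140.9, 282.1 and 334.5 in ambient CO2. Its medium-light signal was 4.48 times the low-light one in high CO2 and 2 times in ambient CO2. Its relative 3xHMG-box1 had 43, 87.7 and 65.3 in high CO2, and 39.1, 64.1 and 72 in ambient CO2. For both genes each low-light signal lay under all medium- and high-light signals, as the choice requires within each CO2 level.

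TOPII, topoisomerase II, which untangles DNA before chromosomes separate, had 56.1, 101 and 116.1 in high CO2, and 70.7, 117.6 and 105.7 in ambient CO2. UBC20 encodes a ubiquitin-conjugating enzyme of the kind that works with the anaphase-promoting complex, and it had 78.4, 167.2 and 170.4 in high CO2, and 91.2, 177.1 and 202.4 in ambient CO2. SOL1 is a relative of TSO1, a DNA-binding protein with cysteine-rich repeats that acts on cell division and fate. Its signals of 43, 96 and 90 in high CO2, and 51.2, 102.6 and 100.1 in ambient CO2, were nearly equal at medium and high light. The probe set 264262_at, which matches 5 genes, each with the synonym H3.1 of a core histone, had 410, 805.9 and 606.2 in high CO2, and 434.3, 713.6 and 750.5 in ambient CO2, and which of the 5 it measured is uncertain.

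Of the cell cycle and mitosis list, no probe set counts among the 126, after AUR2 was left out. Its 5 probe sets tested for CO2 had a median medium minus low difference of 0.68 in high CO2 and 0.67 in ambient CO2. They are AUR1, AUR2, AUR3, HTR12 and SIM, from 67 symbols on this list. The medians are the values of AUR3 in high CO2 and AUR1 in ambient CO2, so they speak mainly for the AUR genes. SIM had 0.47 in high CO2 and -0.02 in ambient CO2. HTR12, the centromeric histone, had 28.9, 44.5 and 38.4 in high CO2, and 27.2, 49.1 and 36.2 in ambient CO2, and missed both the low-light and the signal condition. Of the DNA replication list, 1 of 4 tested probe sets was among the 126, TOPII. The other 3, PRL, ICU2 and POLA3, had medium minus low differences of 0.35, 0.28 and -0.04 in high CO2, and 0.16, 0.01 and 0.42 in ambient CO2. ICU2 and POLA3 encode subunits of DNA polymerase alpha and PRL a subunit of the replication helicase.

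Several symbols belong to organelle gene expression. HLL, a mitochondrial ribosomal protein needed for ovule growth, had 47.1, 78.5 and 85.2 in high CO2, and 40.9, 92.7 and 92.3 in ambient CO2. In ambient CO2 its medium- and high-light signals were nearly equal. PPR596 and PPR336 encode mitochondrial pentatricopeptide-repeat proteins, a class that binds organelle RNA. PPR596 had 108.2, 210.7 and 176.8 in high CO2, and 76.7, 182.2 and 157.4 in ambient CO2, and PPR336 had 66.4, 108.3 and 98.3 in high CO2, and 57.6, 98.7 and 75.6 in ambient CO2.

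Plastid functions were represented by PAC (PALE CRESS), needed to build chloroplasts, and by Cpn60beta3, a subunit of the plastid chaperonin that folds imported proteins. PAC had 88.9, 163.2 and 147.4 in high CO2, and 82.1, 149.3 and 155.8 in ambient CO2, with medium-light signals 1.84 and 1.82 times the low-light ones. Cpn60beta3 had 35.4, 64.6 and 84.8 in high CO2, and 34, 74 and 69.6 in ambient CO2. XPO1B, an exportin that carries proteins and RNA out of the nucleus, had 40.5, 87.7 and 73.3 in high CO2, and 46, 91.9 and 69.3 in ambient CO2. None of the 10 tested probe sets on the plastid gene expression list and none of the 5 on the light-harvesting list was among the 126. As members are 126 of all 13648 tested probe sets, a 0 on lists this short says little. The 5 light-harvesting probe sets had median medium minus low differences of 0.02 in high CO2 and 0.18 in ambient CO2. LHCB4.3 among them had 1.85 and 1.83, and went up by a further 0.82 and 0.63 in high light.

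Genes of development and signalling included GIS, with the largest mean medium minus low difference among the 67 single genes. GIS is a zinc-finger transcription factor that promotes trichomes, the leaf hairs, on flowering shoots. It had 17.3, 94.7 and 117.7 in high CO2, and 31, 90.9 and 106.2 in ambient CO2, a medium over low ratio of 4.74 in high CO2 (with the low-light signal set to 20) and 2.93 in ambient CO2. RR16, also called ARR16, is a type-A response regulator that dampens cytokinin signalling. It had 21.6, 64 and 89.4 in high CO2, and 43.1, 88.6 and 83.1 in ambient CO2. Its relative ARR15 on the cytokinin list was not level, with 41.8, 63.4 and 38 in high CO2, and 48.2, 69.7 and 39.9 in ambient CO2. LHW (LONESOME HIGHWAY), a basic helix-loop-helix factor for vascular cell number, had 35.1, 70.1 and 81.8 in high CO2, and 45.1, 77.4 and 81.4 in ambient CO2. BOB1, a NudC-domain chaperone needed for patterning, had 83.5, 172.6 and 158 in high CO2, and 88.5, 171.7 and 132.1 in ambient CO2. VPS2.2, a subunit of the ESCRT-III membrane-sorting complex, had 61.7, 113.1 and 114 in high CO2, and 67.3, 129.4 and 111 in ambient CO2.

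**Figure D2:**
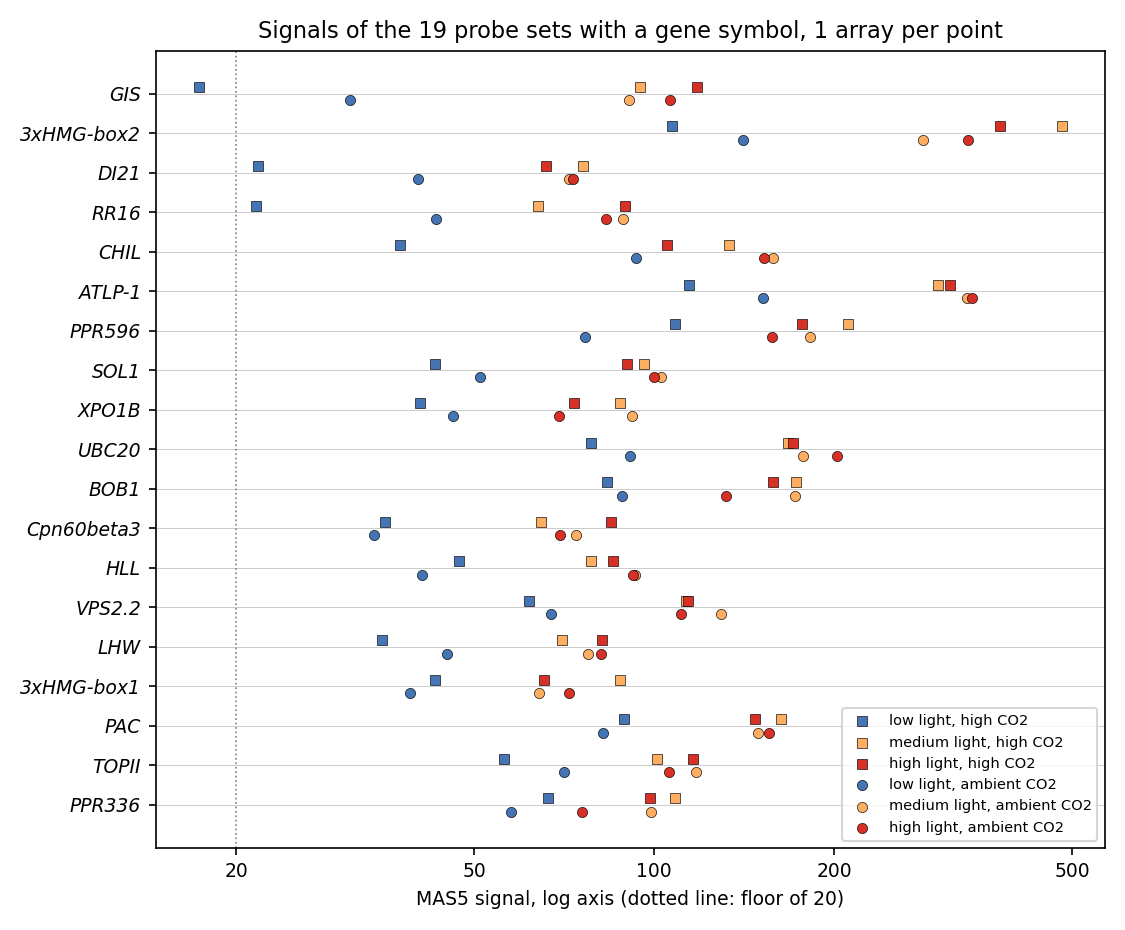
MAS5 signal on a log axis for the 19 probe sets that carry a gene symbol, ordered from the largest (top) to the smallest mean medium minus low difference, with 1 point per array, squares for high CO2 and circles for ambient CO2. In every row both low-light points (blue) lie left of the medium- and high-light points, as the choice of probe sets requires within each CO2 level.

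ATLP-1, a thaumatin-like secreted protein, had 114.4, 297.9 and 312.7 in high CO2, and 152.1, 333 and 340.5 in ambient CO2. CHIL, a chalcone isomerase-like protein that aids flavonoid synthesis, had 37.6, 133.3 and 105.2 in high CO2, and 93.1, 158.2 and 152.7 in ambient CO2, so its low-light signal in high CO2 was the lowest of its 6 by a wide gap. None of the 4 tested genes on the flavonoid list was among the 126. DFR, an enzyme late in the flavonoid pathway and on that list, had 36.8, 63.5 and 68.3 in high CO2, and 47.1, 89.7 and 196.6 in ambient CO2, with its highest signal in high light. DI21 had 21.7, 76 and 65.8 in high CO2, and 40.2, 72.1 and 73.1 in ambient CO2.

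Among the genes known by locus number, AT2G28790 had the largest mean difference, with 103.2, 529.2 and 430.5 in high CO2, and 178.8, 480.7 and 610.8 in ambient CO2. AT1G66250 had 21.5, 71.6 and 65.8 in high CO2, and 24.9, 92.2 and 90.8 in ambient CO2, a medium over low ratio of 3.33 in high CO2 and 3.70 in ambient CO2. AT5G55180 had 142.9, 407 and 455.6 in high CO2, and 226, 518 and 491.4 in ambient CO2. In these 3 genes both low-light signals lay well under the other 4, an order that the choice requires within each CO2 level. AT1G06000 had 50.5, 199 and 249.2 in high CO2, and 87, 224 and 215.1 in ambient CO2. AT3G02640 had 86, 283.3 and 322.3 in high CO2, and 181.6, 316.9 and 360 in ambient CO2, and AT1G23790 had 27.6, 82.1 and 71.7 in high CO2, and 32.3, 70.2 and 73.1 in ambient CO2. For AT2G28620, at the lower edge of the signal condition, the medium over low ratio was 2.65 in high CO2 and 2.66 in ambient CO2, with both low-light signals at about the floor. The medium-light signal of AT1G16520 was 3.07 times the low-light one in high CO2 and 1.87 times in ambient CO2, and that of AT3G02120 was 3.24 and 1.66 times.

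Other locus-number genes had strong signals and smaller ratios. AT4G29410 had 511.4, 902.2 and 735 in high CO2, and 424.3, 878.9 and 707.3 in ambient CO2. AT5G20160 had 484.3, 901.1 and 746.6 in high CO2, and 344.2, 742.2 and 635.9 in ambient CO2. AT5G22440 had 386, 629.1 and 491.4 in high CO2, and 384.3, 744.5 and 563.3 in ambient CO2. In these 3 genes the high-light signal lay between the low- and the medium-light one at both CO2 levels. AT2G40360 had 174.8, 360.7 and 286.2 in high CO2, and 143.6, 305.1 and 308.2 in ambient CO2, and AT4G02930 had 220.4, 378.2 and 398.2 in high CO2, and 164.9, 385.8 and 330.6 in ambient CO2. For both of these the order of medium and high light differed between the CO2 levels. AT5G16250 had 173.1, 462.3 and 499 in high CO2, and 265.7, 489.2 and 530.9 in ambient CO2.

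The largest mean difference of all 126 belonged to 250207_at, which is unnamed here, with 115.1, 801 and 741.7 in high CO2, and 269.7, 962.8 and 1064.8 in ambient CO2. Its medium-light signal was 6.96 times the low-light one in high CO2 and 3.57 times in ambient CO2. A further unnamed probe set, 263034_at, had 466.3, 2390.1 and 2369.9 in high CO2, and 1078.8, 2342.8 and 2567.6 in ambient CO2. On both, low light in high CO2 gave the lowest signal.

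Of 22 gene lists with 100 tested probe sets, 2 had a probe set among the 126, the DNA replication list with TOPII and the cytokinin and meristem list with RR16. Among all 13648 tested probe sets 126 are members, so nothing is read from this count. AUR2 on the cell cycle list and SPCH on the stomatal list also met the rule and were left out by name. Of 27 name patterns searched in symbols and synonyms, 4 matched, for PPR596 and PPR336, TOPII, Cpn60beta3 and UBC20. The gene table holds few full names, so a list or pattern without a match says little about the 59 probe sets without a single gene. It also says little about the 48 genes known by locus number only. The 946 list entries led to 120 probe sets. Some patterns, such as those for ribosomal proteins and for cyclins, matched 0 probe sets inside or outside the 126. No 2 of the 67 genes were next to each other among protein-coding genes.

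The medium minus low difference was larger in high than in ambient CO2 for 78 of 126 probe sets (61.9%), beside 52.1% of all 13648. It ranged from 0.70 to 2.80 in high CO2 and from 0.70 to 1.92 in ambient CO2. CHIL had 1.83 in high CO2 and 0.76 in ambient CO2, 3xHMG-box2 had 2.16 and 1.00, and AT3G02640 had 1.72 and 0.80. The opposite order was seen for AT1G80750 with 0.77 in high CO2 and 1.60 in ambient CO2, and for AT1G64880 with 0.81 and 1.48. AT1G64880 was singled out after its values were seen. Since each difference rests on 1 array a side and on the contrast that chose the probe sets, it was not tested.

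**Figure D3:**
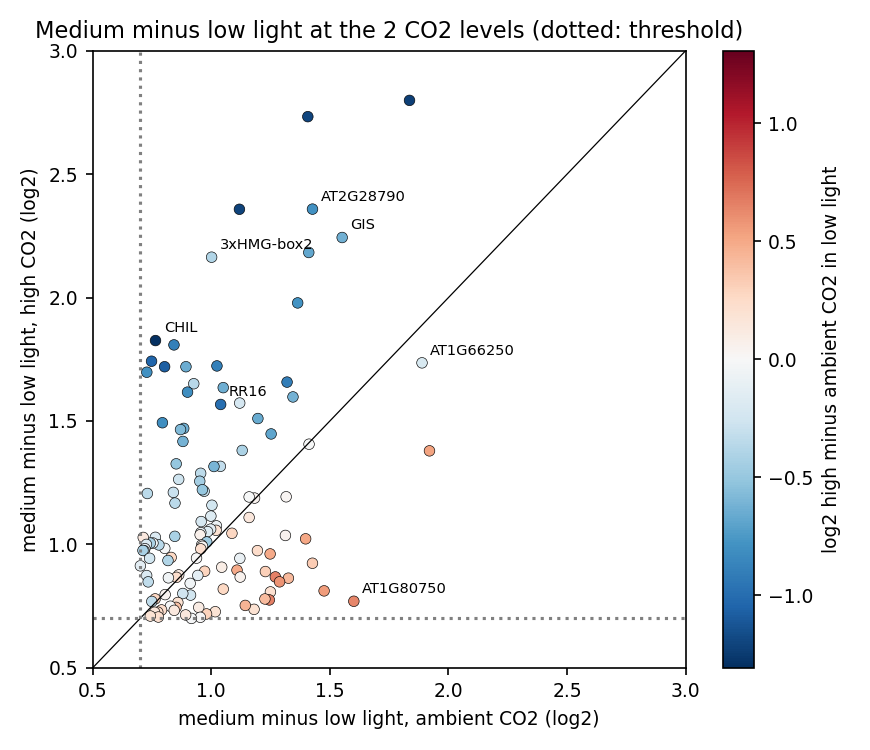
Medium minus low light difference (log2) in high CO2 (vertical) against ambient CO2 (horizontal) for the 126 probe sets, coloured by the high minus ambient CO2 difference in low light, with the threshold of 0.7 dotted and the line of equality drawn. The largest differences, up to 2.80, lie above the line, where blue points had less signal in high than in ambient CO2 in low light. The colour and both axes use the same low-light arrays, so this placing of blue points follows largely from the arithmetic.

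Among the 126, the CO2 difference was most widely spread in low light. In low light 28 of 126 probe sets (22.2%) had at least 0.5 less log2 signal in high than in ambient CO2, beside 5.97% of all tested probe sets, and 7 (5.56%) at least 0.5 more, beside 4.45%. A deficit of at least 1 was seen in 6 (4.76%), beside 0.769%, and an excess of at least 1 in 0, beside 0.469%. In medium light 2 of 126 (1.59%) differed by at least 0.5 either way, 3xHMG-box2 (0.77) and 262543_at (-0.57), named after their values were seen, beside 13.9% of all tested, and in high light 7 (5.56%), beside 14.5%. The SD of the CO2 difference over the 126 was 0.45 in low light, 0.21 in medium light and 0.24 in high light, against 0.33, 0.37 and 0.43 over all tested. All 6 arrays entered the choice of the probe sets and each comparison is 1 array against 1, so no test was made. The choice asked for a signal of at least 50 in both medium-light arrays and a high-light signal within 0.5 of it, while all tested probe sets needed only a mean signal of 27.5, so the narrow spread in medium and high light cannot be told apart from the choice. It set no upper limit on the medium minus low difference. The wider spread in low light, and the shares counted there, cannot be told apart from the choice either. In low light 16 of the 126 signals in high CO2 and 3 in ambient CO2 lay under 27.5, the mean signal needed for testing, and 4 and 0 lay under the floor. The part of low signal or of the low-light high-CO2 array in this was not tested.

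Of those 28 probe sets, 15 carried a single gene. They included CHIL (-1.31 in low light, -0.25 in medium and -0.54 in high light), AT3G02640 (-1.08, -0.16 and -0.16), DI21 (-0.89, 0.08 and -0.15) and AT2G28790 (-0.79, 0.14 and -0.50). GIS had -0.63, 0.06 and 0.15. Of the 7 probe sets with more signal in high CO2 in low light, the single genes were AT1G48570 (0.66, 0.26 and 0.22), AT1G80750 (0.64, -0.20 and 0.04), AT1G64880 (0.55, -0.11 and 0.21) and AT5G38890 (0.51, 0.13 and -0.20).

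**Figure D4:**
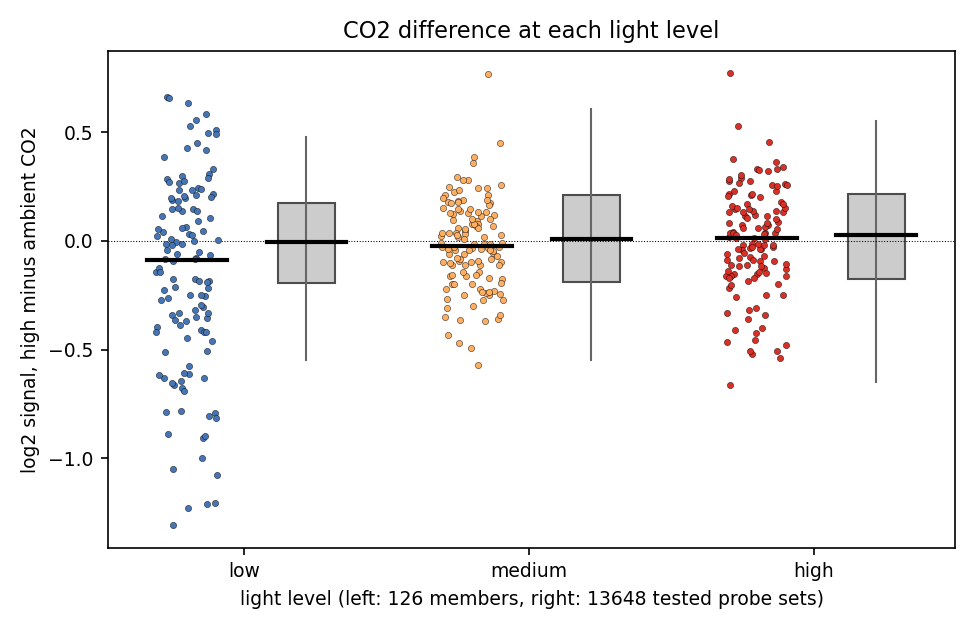
High minus ambient CO2 difference in log2 signal at each light level for the 126 probe sets (points, left) and all 13648 tested probe sets (box for the middle 50%, whiskers for the 5th to 95th percentile, right), with medians as thick lines. The points reach from -1.31 to 0.66 in low light and crowd closer to 0 in medium and high light.

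The CO2 difference over the 3 light levels was not a condition of the choice of probe sets, although the same 6 arrays entered both. It was fitted with limma in an additive model of CO2 and light, whose error is the departure from additivity. A CO2 difference that changes with light widens that error. The condition on high minus medium light bounds part of it, so the p-values of the 126 are not independent of the choice. No member of the 126 passed the adjusted threshold of 0.05 for CO2, beside 0.0659% of all tested probe sets (9 of 13648, 0.0586% higher and 0.00733% lower in high CO2), and the smallest adjusted p was 0.33. The count was also 0 without the array of conflicting labels, where 100 of all tested probe sets passed. With that array placed by its atmosphere entry, 0 of all tested probe sets passed, so a count of 0 among the 126 was certain there. An unadjusted p under 0.05 was reached by 17 of 126 (13.5%), 13 with less and 4 with more signal in high CO2, beside 8.73% of all tested, 4.11% with less and 4.62% with more. The median CO2 difference was -0.03 over the 126 and 0.01 over all tested probe sets. In high CO2 the signal was lower at all 3 light levels for 31 of 126 (24.6%, beside 13.7%) and higher at all 3 for 18 (14.3%, beside 16% of all tested). All 126 passed the filter on mean signal, which the signal condition in medium light favoured.

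Among single genes with less signal in high CO2 at all 3 light levels, the smallest p belonged to CHIL, at -0.70 ± 0.20 on the log2 scale (limma SE, 3 arrays a side, adjusted p = 0.393). It was followed by AT5G42720 (-0.36 ± 0.11), AT5G55180 (-0.37 ± 0.13) and AT3G02640 (-0.47 ± 0.19). AT3G05600 had -0.46 ± 0.19, AT1G66250 -0.35 ± 0.16, AT3G52170 -0.29 ± 0.14 and ATLP-1 -0.23 ± 0.12. AT5G42720 had 113.1, 216.2 and 203.3 in high CO2, and 148.1, 261 and 272.4 in ambient CO2, with the high-CO2 signal lower at each light level.

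Among single genes with more signal in high CO2 at all 3 light levels, AT5G20160 had 0.33 ± 0.10 (limma adjusted p = 0.409) and AT1G48570 0.38 ± 0.13 (limma adjusted p = 0.484). The others were PPR596 (0.29 ± 0.13), AT4G36680 (0.31 ± 0.15), AT2G18330 (0.27 ± 0.14), AT4G25730 (0.25 ± 0.14), PPR336 (0.24 ± 0.14) and AT4G29410 (0.12 ± 0.10). None passed the threshold. The fit leaves 2 residual degrees of freedom, so a difference of this size could be missed.

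Leaving out 1 array of a light level takes that level out of the estimate, and this moved several of these values by over 1.5 times. Without either low-light array CHIL stood at -0.39, AT3G02640 at -0.16, AT3G05600 at -0.29, AT5G55180 at -0.23 and ATLP-1 at -0.14. On the higher side AT1G48570 stood at 0.24, PPR596 at 0.19 and AT4G29410 at 0.05 without either low-light array, and AT4G36680 at 0.21 without either high-light array. Without the high-light ambient-CO2 array 1 of the 126 passed, the unnamed 250207_at (-0.75, limma adjusted p = 0.0422), which stood at -0.67 ± 0.17 and limma adjusted p = 0.33 with all arrays. In that same fit 195 of all tested probe sets passed, so nothing is read from this 1.

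**Figure D5:**
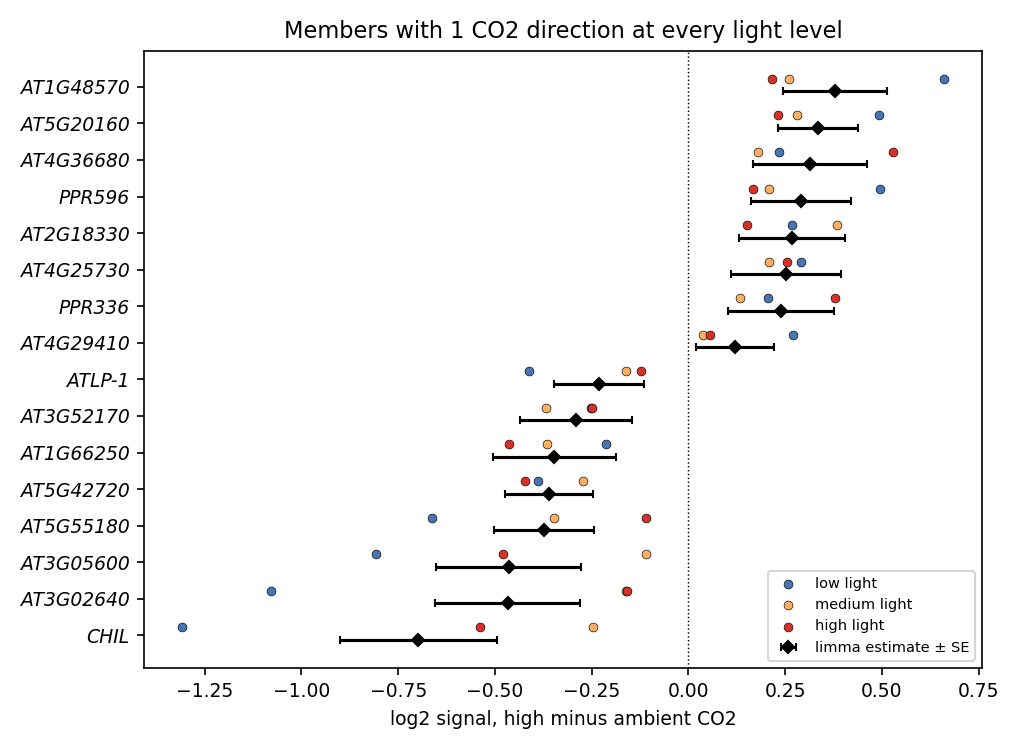
High minus ambient CO2 difference in log2 signal for the 16 single genes with 1 direction at every light level and the smallest p, as single values at each light level (coloured points) and as the limma estimate with its standard error (black diamonds and bars). CHIL has the largest estimate, -0.70, and its low-light point stands at -1.31.

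Among single-gene probe sets outside the 126 with a mean signal of at least 50, those whose profile over the 6 arrays was most like the average profile of the 126 were NERD (Pearson r = 0.992), AT3G10840 (0.990), AT3G51100 (0.989), BUB3.1 (0.986) and AT4G39860 (0.984). Each r is over 6 arrays that the choice of probe sets used, so it is a description. BUB3.1, a spindle checkpoint protein, had 73.8, 138.8 and 120.3 in high CO2, and 87, 139.8 and 131.9 in ambient CO2, and its medium minus low difference of 0.68 in ambient CO2 kept it out. Within the 126, r with the average profile ranged from 0.846 to 0.993 with a median of 0.953. The genes left out by name had the same shape, with SPCH at 5.6, 52.6 and 47.4 in high CO2 and 32.4, 70.1 and 67.7 in ambient CO2, and AUR2 at 36, 69.7 and 82.5 in high CO2 and 38.9, 86.3 and 82.5 in ambient CO2.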

How the data were processed

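Total RNA of 6 plant samples was hybridised to 6 arrays, 1 per combination of light and CO2. The authors deposited MAS5 signal intensity, a linear unit, per the submitters' processing notes, which give no version. Every deposited column had a 2% trimmed mean of 100.01, so the arrays had been scaled to a common level. All samples carry replicate 1. Nothing states that they were planted separately. With 1 array per combination, the spread behind the p-values is the departure of these arrays from an additive model of light and CO2. A CO2 difference that changes with light adds to that spread. The p-values cover these arrays alone.

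Signals under 20 were set to 20 before log2. After removal of 64 control probe sets, the 60% with the highest mean log2 signal (13648 probe sets, cutoff 27.5) entered limma 3.58.1 under R 4.3.3, with light as a factor plus CO2 and with a moderated variance that follows the mean signal. Benjamini-Hochberg adjustment ran over all of them. Python 3.11.15 did the rest.

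The annotation listed 14016 probe sets, 13513 with 1 gene, and 13436 of these were found in the TAIR10.1 gene table, the source of current symbols. No sequences were used here, and a planned promoter motif search was not run. The members and lists were chosen with earlier results of these data known. The rule for named genes took, among members with 1 gene, the 15 with the largest mean medium minus low difference, the 8 in each CO2 direction with the smallest p among those of 1 direction at every light level, list members, the 10 brightest, those nearest the thresholds, and neighbours or genes of 1 family name. The other members with a symbol, the unnamed probe sets, 264262_at, AT5G38890 and AT1G64880 were added after their values were seen. Alternatives were other normalizations, floors, filters, priors, light and CO2 terms, rule thresholds, and each array left out.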

Additional observations from a re-analysis of the deposited data

How the results depend on the processing

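No paired analysis was possible because replicate numbers form no blocks when every label carries replicate 1; the CO2 fit itself already compares high with ambient CO2 within each light level. The 126 probe sets became 122 under quantile normalization (113 shared), 99 with equal medians (97 shared), 126 with signals floored at 0.1 (126 shared) and 95 with a floor of 50 (95 shared). With the rule's own limits moved there were 338 at a medium minus low difference of 0.5, 32 at 1, 65 with a level stretch within 0.3, 167 within 0.7, 163 with a signal of 30 and 76 with 100. The count of all probe sets past the threshold for CO2 was 9, and it was 0 with the atmosphere entry, with light as a linear score, without the filter, without the intensity trend or with a floor of 50, 5 for the top 40%, 182 without both high-light arrays, and 10 to 195 with 1 array left out. It was 195 without the high-light ambient-CO2 array, 100 when the other high-light array was left out, and 16 without either low-light array, and the cause was not tested. Of the 126, the count stayed at 0 in every alternative run except 1 without the high-light ambient-CO2 array (range 0 to 1 with 1 array left out). Where the count over all probe sets was 0, the 0 among the 126 was certain. The median CO2 difference of the 126 ranged from -0.05 to -0.01 with 1 array left out and was -0.05 with the atmosphere entry. The 16 named CO2 differences kept their direction and stayed short of the threshold in all 270 alternative fits that gave a value. These genes were chosen for 1 direction at every light level, so leaving out arrays could not reverse it. Changes of filter, trend, prior or to a linear light score left the estimates as they were. The kept direction was therefore largely set by the choice. Low-light signals near the floor limit the sizes that use them.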
